A study of Mus musculus with 7 samples.

Results

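The 9 genes described here, Cd79a, Cd79b, Blnk, Btk, Syk, Lyn, Blk, Plcg2 and Zap70, encode the signalling chain of the pre-B-cell receptor. They were taken as a set because of that role, and their accessible chromatin was read from ATAC-seq peaks overlapping each gene body or the 10000 bp on either side of it. Of 647973 peaks in 7 libraries, 806 lay in these windows, and they merged into 163 of the 145247 merged regions of the series. Coordinates are those of mm10, with genes from GENCODE M21. The set holds 9 of 21938 protein-coding genes.

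The libraries came from mouse B-lineage cells, with 1 library in each of 7 groups. WT pre-proB, WT proB and WT preB cells were from Ergfl/fl mice, which carry floxed Erg alleles and no Cre. Erg KO pre-proB cells were from Rag1CreT/+;Ergdelta/delta mice, in which a Cre under Rag1 control had deleted Erg, an ETS-family transcription factor gene, in lymphoid progenitors. Rescue pre-proB, Rescue proB and Rescue preB cells were from Rag1CreT/+;Ergdelta/delta;IgHVH10tar mice, which lacked Erg in the same way and carried a knock-in heavy chain allele that was already rearranged. The methods describe adult mice of both sexes, and the labels give no age. The titles set the stage of the Rescue libraries, although the source names gave another stage for all 3 of them (proB for the title pre-proB, preB for proB and pre-proB for preB). With 1 library a group there was no spread between mice, no test was run, and intervals cover counting error alone.

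The pre-B-cell receptor forms when a rearranged immunoglobulin heavy chain pairs with the surrogate light chain. It has no kinase of its own and signals through the paired membrane proteins CD79A and CD79B, whose tails carry tyrosine motifs. Kinases of the Src family, among them LYN and BLK, phosphorylate those motifs, and SYK, or in pre-B cells also its relative ZAP70, docks there and phosphorylates the adaptor BLNK. BLNK gathers BTK and phospholipase C gamma 2, the product of Plcg2, which raises calcium and drives maturation. Many of these genes are switched on by EBF1 and PAX5 as cells commit to the B lineage.

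The sequences of 8 elements are given first, since most of what follows turns on them. The Cd79a promoter is the only promoter of the set that had a peak in some libraries and not in others. The next 5 are the regions with a peak in all 3 WT libraries and none in Erg KO or Rescue pre-proB. The Blnk element, with no peak in any of the 3 pre-proB libraries, and the Syk element, which went the opposite way, were added after their values were seen. Each stretch is the 201 bases around the strongest summit (300 bases, from 250 before to 50 after the start, for the Cd79a promoter), read from GRCm38.p6 (RefSeq), and capitals mark the letters of any of the motifs searched.
Cd79a promoter, chr7:24897247-24897546, plus strand: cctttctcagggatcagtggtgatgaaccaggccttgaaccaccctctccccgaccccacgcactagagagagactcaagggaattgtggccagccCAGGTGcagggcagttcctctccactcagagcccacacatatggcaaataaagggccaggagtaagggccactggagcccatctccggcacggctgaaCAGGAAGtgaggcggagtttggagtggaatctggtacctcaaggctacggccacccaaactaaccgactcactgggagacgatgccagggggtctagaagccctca
Cd79b far downstream element, chr11:106308248-106308448, plus strand: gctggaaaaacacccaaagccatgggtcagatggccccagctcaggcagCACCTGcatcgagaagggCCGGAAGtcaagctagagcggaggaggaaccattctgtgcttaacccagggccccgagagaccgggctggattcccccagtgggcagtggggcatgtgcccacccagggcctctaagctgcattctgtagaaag
Cd79b near downstream element, chr11:106310158-106310358, plus strand: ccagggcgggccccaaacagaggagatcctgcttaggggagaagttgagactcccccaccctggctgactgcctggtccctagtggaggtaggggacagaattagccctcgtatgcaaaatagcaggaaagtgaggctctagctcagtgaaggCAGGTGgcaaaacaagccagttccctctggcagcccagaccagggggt
Btk intron 5 element, chrX:134564407-134564607, plus strand: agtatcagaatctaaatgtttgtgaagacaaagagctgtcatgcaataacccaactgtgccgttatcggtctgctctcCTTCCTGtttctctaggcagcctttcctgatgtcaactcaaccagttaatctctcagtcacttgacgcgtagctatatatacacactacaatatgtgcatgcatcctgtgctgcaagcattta
Plcg2 intron 5 element, chr8:117562710-117562910, plus strand: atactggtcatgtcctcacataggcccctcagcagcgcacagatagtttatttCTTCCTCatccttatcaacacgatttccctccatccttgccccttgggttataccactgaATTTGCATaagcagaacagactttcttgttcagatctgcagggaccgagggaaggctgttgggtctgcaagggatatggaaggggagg
Lyn intron 4 element, chr4:3744047-3744247, plus strand: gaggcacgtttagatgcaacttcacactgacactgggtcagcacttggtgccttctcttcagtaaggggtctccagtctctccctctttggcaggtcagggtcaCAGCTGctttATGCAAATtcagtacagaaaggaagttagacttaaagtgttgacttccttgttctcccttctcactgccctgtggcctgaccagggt
Blnk intron 2 element, chr19:40970409-40970609, plus strand: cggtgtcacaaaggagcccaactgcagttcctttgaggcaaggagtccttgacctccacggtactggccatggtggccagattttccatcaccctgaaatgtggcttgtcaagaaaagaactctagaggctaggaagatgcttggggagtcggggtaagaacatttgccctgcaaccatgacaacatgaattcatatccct
Syk intron 1 element, chr13:52605082-52605282, plus strand: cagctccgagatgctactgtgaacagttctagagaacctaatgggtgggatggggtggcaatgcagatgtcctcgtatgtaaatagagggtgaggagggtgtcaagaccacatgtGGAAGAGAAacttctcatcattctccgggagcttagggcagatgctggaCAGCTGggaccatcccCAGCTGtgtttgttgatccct

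The motifs were searched on both strands as EBF1 TCCCNNGGG, ETS CAGGAAG or CCGGAAG, PU.1 GAGGAAG, ETS-IRF GGAANNGAA, E-box CAGCTG or CAGGTG, RUNX TGTGGTT and FOXO TGTTTAC. The ETS, PU.1 and ETS-IRF letters share a GGAA core and can overlap. The Cd79a promoter held an E-box at position 97 and an ETS match at position 195, counted from 1 at the left end. The far Cd79b element held an E-box at position 50 and an ETS match at position 68, the Btk element an ETS match at position 79, and the Plcg2 element a PU.1 match at position 54. The Syk element held an ETS-IRF match at position 116 and E-boxes at positions 165 and 181, and the Blnk element held none of these letters. The octamer ATGCAAAT, the sequence read by OCT factors, was added to the search after it was seen in the Lyn and Plcg2 elements, at positions 115 and 114. It occurred in 8 of the 163 regions, 4.91% (95% Wilson interval 2.51 to 9.38), and in 2.05% of all merged regions. The 8 include the Lyn and Plcg2 elements that prompted the search, so the interval is no test of the share. A match is a run of letters and says nothing of what was bound.

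The EBF1 letters occurred in 13 of 163 regions, 7.98% (4.72 to 13.2), against 5.88% of all merged regions. They were found in 6 of the 30 regions that were at least 2 times higher in WT proB than in WT pre-proB, which were 1 each at Cd79a, Cd79b, Blnk and Blk and 2 at Plcg2, a share of 20% (9.51 to 37.3) where all such regions had 17.4%. Among the 23 regions that were at least 2 times lower there were 0 (upper limit 14.3%), and in all such regions 1.42%. ETS letters stood in 36 of 163 regions, 22.1% (16.4 to 29.1) against 17.1%, with 5 of them among the higher regions of Cd79b. E-boxes stood in 67 regions, 41.1% (33.8 to 48.8) against 35.6%. PU.1, ETS-IRF, RUNX and FOXO letters stood in 26, 15, 12 and 5 regions, or 16.0%, 9.2%, 7.36% and 3.07%, where all merged regions had 16.6%, 9.76%, 10.8% and 2.64%. For all 7 motifs of the first search the interval of the members held the share of all regions. In the RefSeq promoter table, which held 6 of the 9 genes, EBF1 letters were in none of the 6 and in 6.56% of all 32851 promoters, and ETS letters were in Cd79a, Blnk and Zap70 and in 20.9% of all.

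The height of a peak is given as the fold of its summit over the background pileup of its own library, as deposited, with a 95% Poisson interval of the summit count. The lists held 76465 to 105649 peaks. The background pileup, a measure of relative depth, was between 3.49 and 4.6, and the lowest fold called as a peak was between 2.32 and 2.63. A region without a peak is therefore one below about that fold, not one shown to be closed. Where a ratio needed a value for such a region, the lowest called fold of that library was used.

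In the 9 windows lay 111, 115 and 110 peaks for WT pre-proB, proB and preB, 113 for Erg KO and, in stage order, 122, 122 and 113 for Rescue. As a share of each list these were 0.116%, 0.125% and 0.144% in WT, 0.11% in Erg KO and 0.115%, 0.133% and 0.134% in Rescue. The member count hardly moved, and the genes moved in opposite directions beneath it. From WT pre-proB to WT proB the number of peaks went from 6 to 11 at Cd79a, from 8 to 12 at Cd79b, from 7 to 12 at Blnk, from 8 to 10 at Btk and from 2 to 6 at Zap70. Over the same step it went from 19 to 15 at Syk, from 24 to 17 at Lyn and from 26 to 21 at Plcg2, and stayed at 11 at Blk. The whole list went from 95662 to 91668 peaks over this step. Of the 163 regions, 67 had a peak in all 7 libraries, 41.1% (33.8 to 48.8), while 32.0% of all merged regions did.

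**Figure D1:**
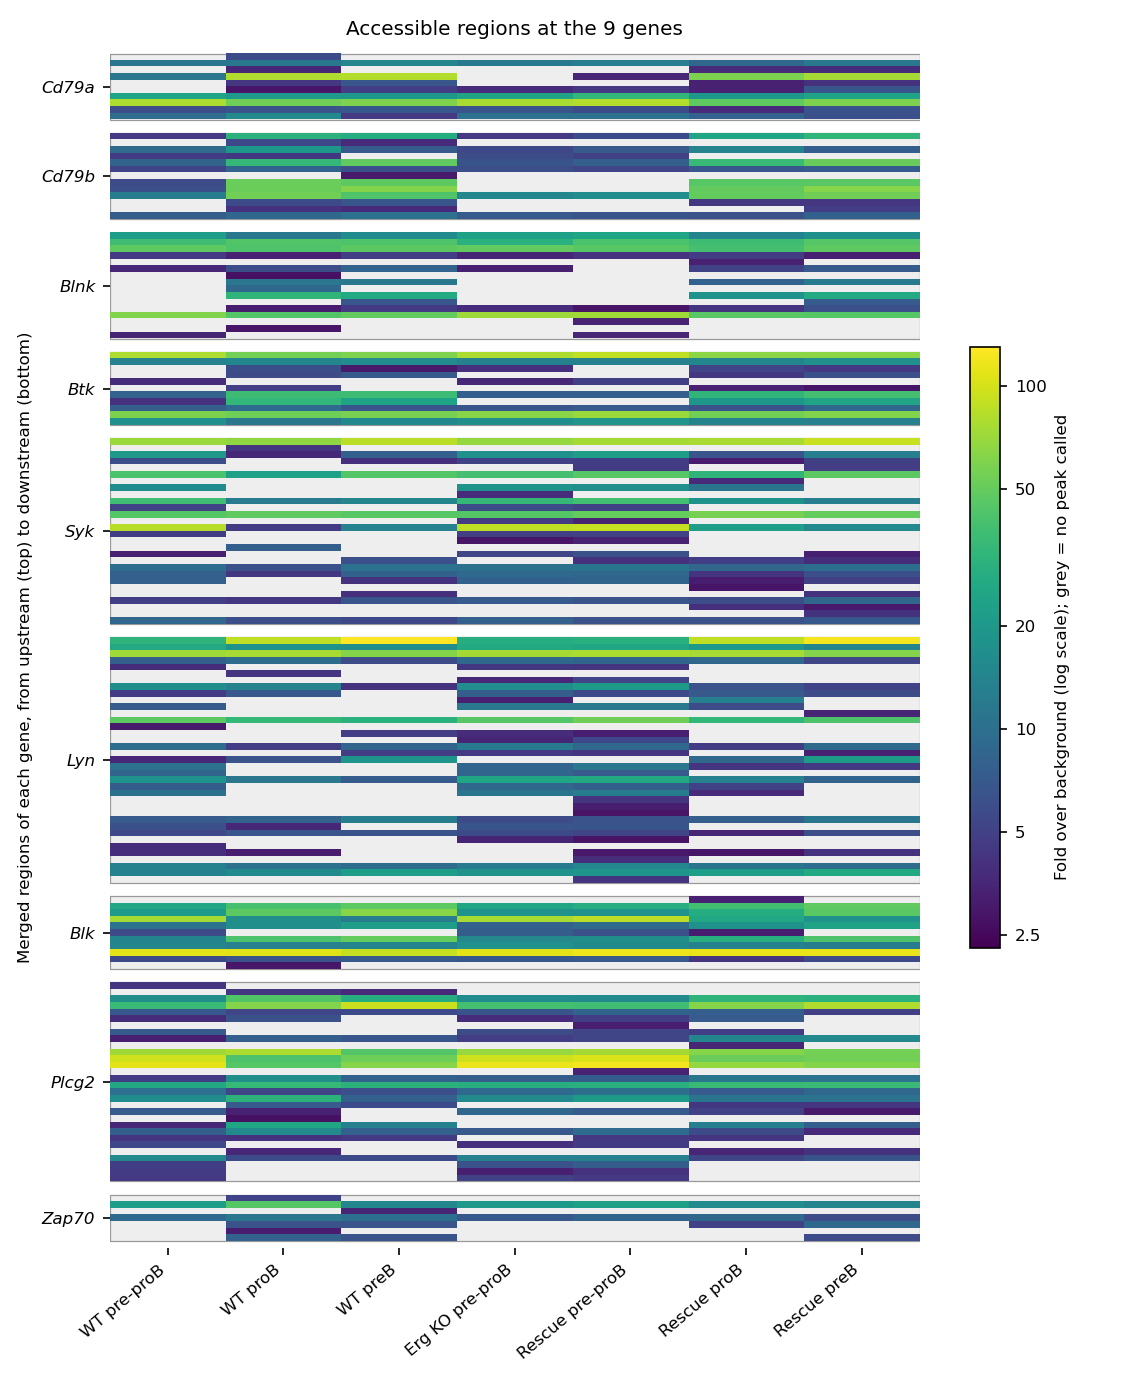
Fold over background (colour, log scale) of the 163 merged regions at the 9 genes (rows, from upstream to downstream within each gene) in the 7 libraries (columns). Grey marks a region with no peak called. The 3 pre-proB columns look alike, with 67 rows filled in every column.

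Promoters of 8 of the 9 genes carried a peak within 1000 bp of an annotated start in every library except Erg KO pre-proB, which had 7. Over all coding genes the share was 61.4% to 65.5%. The 2 exceptions were Cd79a, with no promoter peak in Erg KO, and Zap70, with none in any library.

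**Figure D2:**
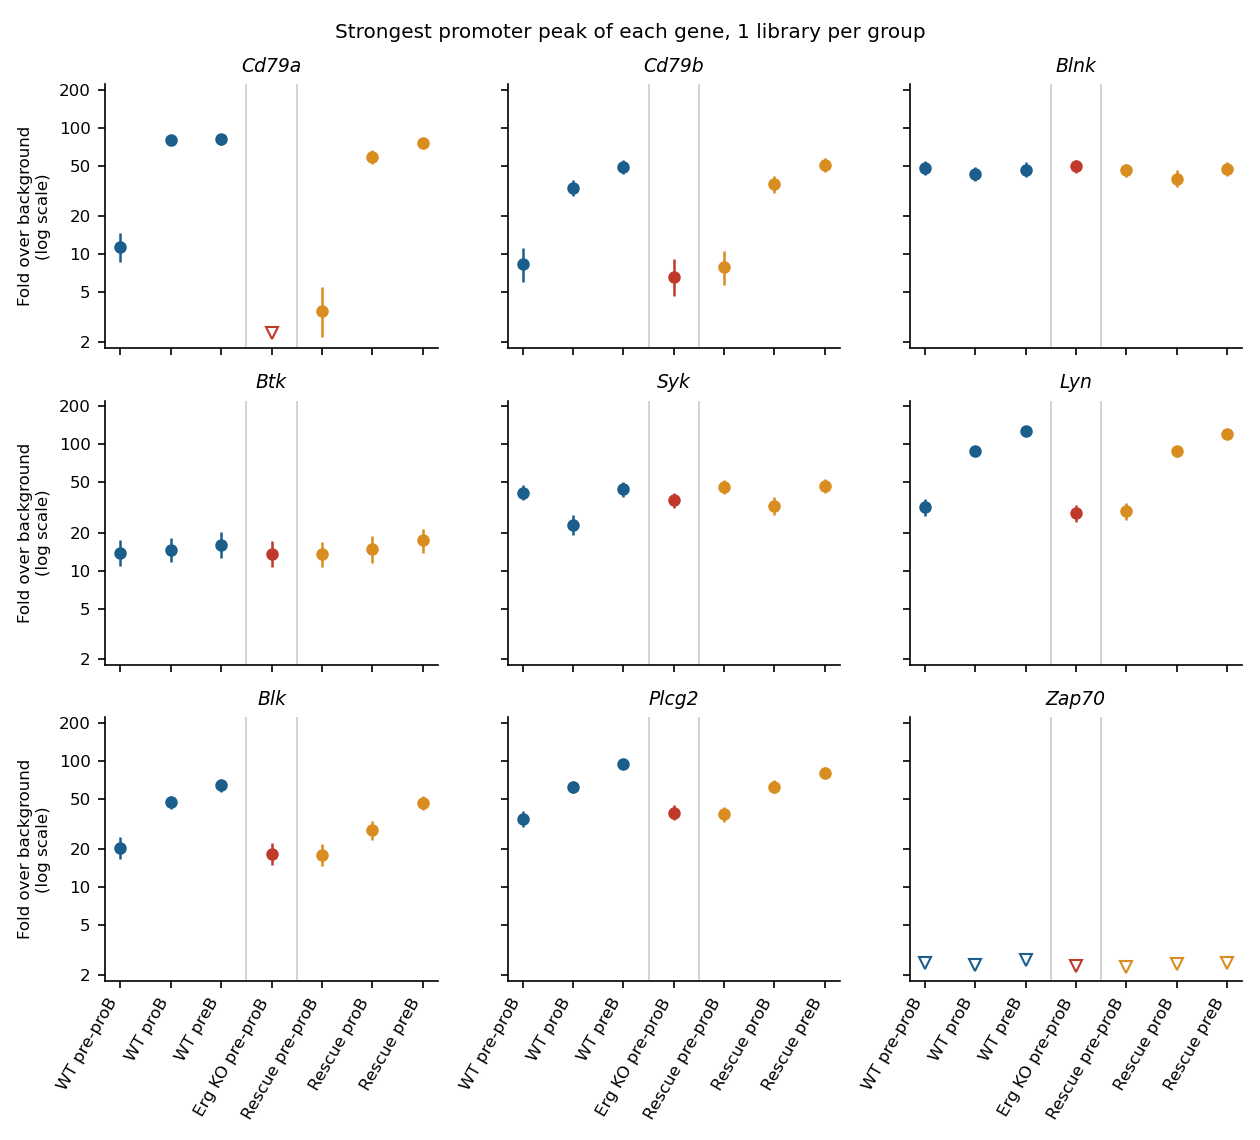
Fold of the strongest promoter peak (y axis, log scale) in each library (x axis) for each gene, with 95% Poisson intervals as bars. Open triangles mark a promoter without a peak, drawn at the lowest fold called in that library. Cd79a spans 3.57 to 81.3 with 1 library below the limit, while Btk stays between 13.4 and 17.3.

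The promoters of the receptor subunits had the largest ratios of WT proB to WT pre-proB among the 8 promoters with a peak. CD79A is the signalling subunit needed for the receptor to reach the surface. The promoter peak of Cd79a (ENSMUSG00000003379, chr7:24897381-24902197, plus strand), in the merged region chr7:24895961-24898509, had a fold of 11.4 (8.73 to 14.7) in WT pre-proB, 80.1 (72.8 to 88.0) in WT proB and 81.3 (73.3 to 90.0) in WT preB. It was not called in Erg KO pre-proB, and over the stages of Rescue it reached 3.57 (2.22 to 5.48), then 59.0 (52.1 to 66.6), then 75.5 (68.0 to 83.6). The proB and preB libraries were high in both genotypes. Rescue pre-proB stood below WT pre-proB without overlap of the intervals, and Erg KO, with no peak, has no interval.

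The Rescue pre-proB promoter of Cd79a was 0.313 times (0.178 to 0.527) that of WT pre-proB, a ratio lower than in all but 0.0436% of the 13771 coding promoters with a peak in both libraries. With the lowest called fold in place of the missing peak, WT was 4.79 times Erg KO. From pre-proB to proB the promoter was 7.01 times (5.33 to 9.36) higher in WT and 16.5 times (10.5 to 27.5) higher in Rescue. The WT pre-proB peak was of middling rank, at percentile 58.5 of its list by fold, and the WT proB peak was at percentile 96.2.

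Some B-lineage markers had the pattern of Cd79a and others did not. Of 9 such genes (Ebf1, Pax5, Rag1, Rag2, Il7r, Cd22, Igll1, Vpreb1, Pou2af1), all 9 carried a peak at their promoter in WT pre-proB and in the 4 proB and preB libraries, and 6 did in Erg KO and Rescue pre-proB. Pax5, Vpreb1 and Pou2af1 lacked a peak in both Erg-deficient pre-proB libraries. Ebf1 was at 21.5 in WT pre-proB and at 24.4 and 23.6 in Erg KO and Rescue pre-proB, Il7r was at 39.9 and at 51.9 and 50.2, and Cd22 was at 30.4 and at 35.4 and 40.4. The summed fold of the list was 173 to 182 in the pre-proB libraries, with no drop common to the Erg-deficient ones, and 414 to 525 in the others. The part of B-lineage content in the Cd79a values was not tested. Fewer cells of the B lineage in a sample and less open chromatin per cell cannot be told apart in such bulk libraries.

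Most of the other 9 regions of Cd79a did not follow its promoter. The strongest of them (chr7:24903936-24904877), downstream of the gene at the promoter of Arhgef1, had folds of 79.7, 54.3 and 59.4 in WT, 78.4 in Erg KO and 81.8, 47.9 and 59.0 in Rescue in stage order, so that it was higher in pre-proB. A small region over exon 2 was called in all 4 proB and preB libraries, with folds of 3.34 to 6.79, and in none of the pre-proB libraries.

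CD79B is the partner subunit, encoded on the minus strand at chr11:106311341-106314762 (ENSMUSG00000040592). Its promoter (chr11:106314164-106315185) had folds of 8.34 (6.06 to 11.2), 33.6 (28.9 to 38.8) and 48.9 (42.7 to 55.7) in WT, 6.6 (4.65 to 9.1) in Erg KO and 7.86 (5.74 to 10.5), 35.6 (30.3 to 41.6) and 51.0 (44.8 to 57.7) in Rescue. The intervals of the 3 pre-proB libraries overlapped, unlike those at Cd79a. The step from pre-proB to proB was 4.03 times (2.88 to 5.76) in WT and 4.53 times (3.23 to 6.48) in Rescue.

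Beyond the 3′ end of Cd79b lay a group of strong elements. The near one (chr11:106309587-106310928, 1.08 kb past the gene) had folds of 5.82, 52.1 and 47.8 in WT and 45.7 and 46.6 in Rescue proB and preB, and the far one (chr11:106307582-106308808, 3.15 kb past it) had 6.2, 52.4 and 61.8 in WT and 49.2 and 62.3 in Rescue proB and preB. Neither had a peak in Erg KO or Rescue pre-proB. With the lowest called fold in its place, WT pre-proB was 2.44 and 2.6 times Erg KO and 2.51 and 2.67 times Rescue pre-proB. They stood at percentiles 32.4 and 35.4 of the WT pre-proB list by fold, so these were small peaks there.

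A further element (chr11:106305455-106306626) had 12.6, 54.8 and 42.7 in WT, 14.8 in Erg KO and 16.6, 49.9 and 53.8 in Rescue. An upstream one (chr11:106324660-106326187) had 4.46, 30.8 and 28.1 in WT, 4.58 in Erg KO and 5.72, 24.5 and 32.0 in Rescue. These elements were several-fold higher in proB and preB than in pre-proB, like the promoter, and stayed level between the pre-proB libraries. A weak region over exon 2, within reach of a second annotated start (chr11:106313365-106313977), was between 5.23 and 8.31. In all, 8 of the 13 Cd79b regions were at least 2 times higher in WT proB than in WT pre-proB, and none was lower. Of all merged regions with a peak in either library 17.5% were higher. The 13 were not limited to such regions, so the shares are not alike. The Cd79b window also overlaps the genes Gh and Scn4a, and regions were counted by position alone.

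**Figure D3:**
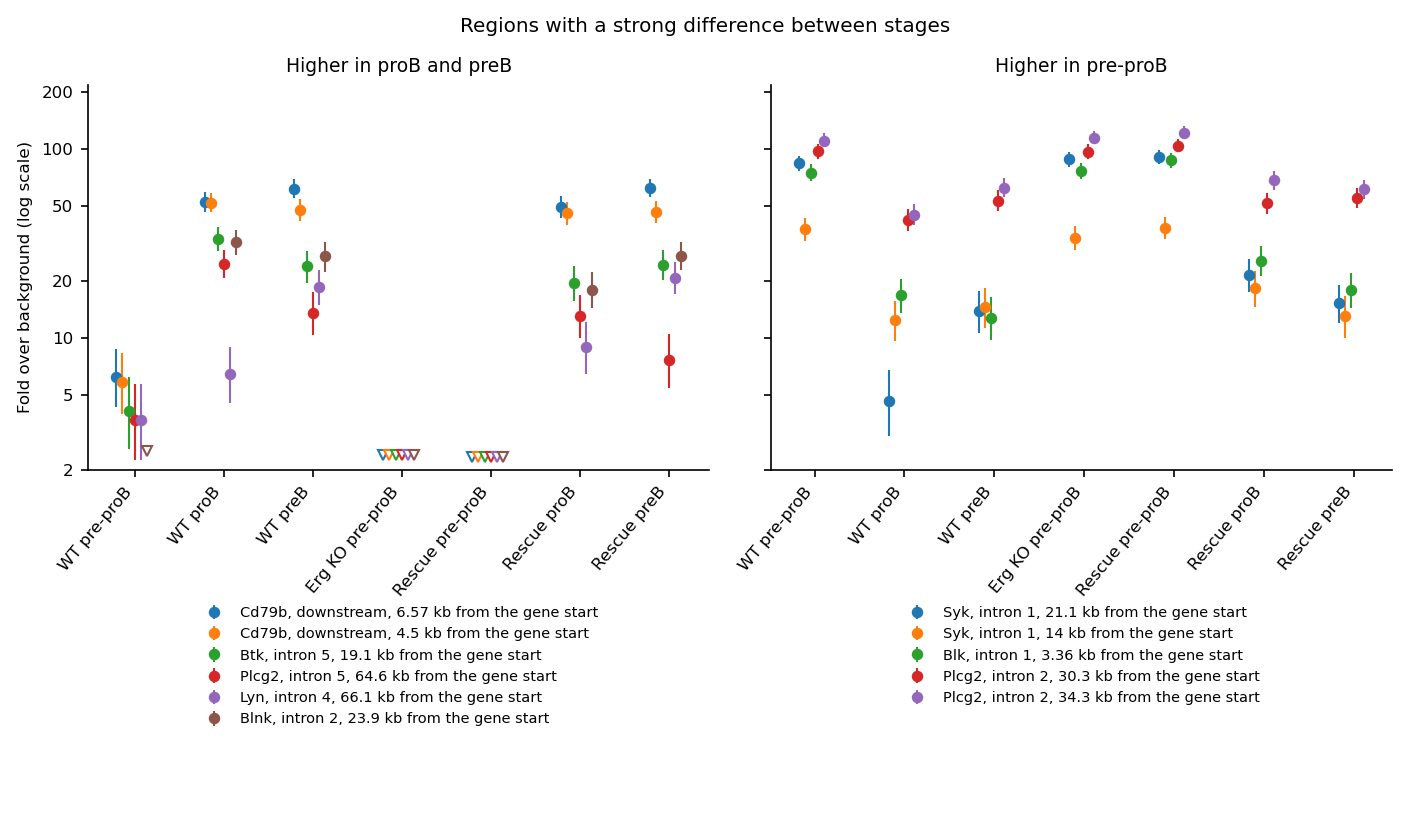
Fold over background (y axis, log scale) in the 7 libraries (x axis) for 6 regions that were higher in proB and preB (left) and 5 that were higher in pre-proB (right), with 95% Poisson intervals as bars and open triangles for no peak, drawn at the lowest fold called. On the left all 6 lack a peak in Erg KO and Rescue pre-proB, and on the right the 3 pre-proB libraries stand above the other 4.

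Syk (ENSMUSG00000021457, chr13:52583173-52648792, plus strand) and Zap70 (ENSMUSG00000026117, chr1:36761798-36782818, plus strand) encode the tandem-SH2 kinases that dock on CD79A and CD79B. Several regions inside Syk were lower in proB and preB. The promoter region (chr13:52582189-52585604) had folds of 41.3, 23.1 and 44.1 in WT, 35.9 in Erg KO for its promoter peak and 45.9, 32.3 and 46.8 in Rescue, lowest at proB in both genotypes. The strongest region of the first intron (chr13:52602897-52605687, 21.1 kb from the gene start) had 84.1 (76.4 to 92.4) in WT pre-proB, 4.62 (3.02 to 6.78) in WT proB and 13.8 (10.6 to 17.6) in WT preB. Erg KO had 88.1, and Rescue had 90.6, 21.6 and 15.3 in stage order. WT proB was thus 0.0549 times (0.0351 to 0.0821) WT pre-proB, and the 3 pre-proB libraries were alike.

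A second annotated start of Syk, in the same intron (chr13:52596346-52597994), had folds of 37.6, 12.4 and 14.5 in WT, 33.9 in Erg KO and 38.2, 18.3 and 13 in Rescue. A further region between them (chr13:52599170-52601214) stayed between 44.6 and 56.6 in all libraries. At Syk 8 of 28 regions were at least 2 times lower in WT proB than in WT pre-proB, and 1 was higher. Of all merged regions with a peak in either library 25.4% were lower. The 28 also count regions with a peak in neither, so the shares are not alike. The highest fold at the gene, 92.6 in Rescue preB, belonged to an upstream region (chr13:52571540-52573707) that was between 67.0 and 92.6 throughout.

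The Syk intron element also differed between WT and Rescue at the proB stage, where Rescue was 4.68 times (2.99 to 7.59) WT. At preB the ratio was 1.11 (0.779 to 1.57).

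Zap70 had no promoter peak in any library within 1000 bp of its start. Its main element lay in intron 1 (chr1:36766310-36767973, 5.34 kb from the start), with folds of 21.9, 45.0 and 15.1 in WT, 20.3 in Erg KO and 22.9, 16.0 and 14.2 in Rescue. WT proB was the highest by itself, 2.06 times (1.64 to 2.59) WT pre-proB, while Rescue proB was 0.356 times (0.27 to 0.465) WT proB. A region downstream (chr1:36786090-36786620) was called in all 4 proB and preB libraries, with folds of 5.12 to 8.87, and in no pre-proB library. In WT proB the Syk element was thus at its lowest fold and the Zap70 element at its highest, each in 1 library.

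LYN and BLK are the Src-family kinases that act first. Lyn (ENSMUSG00000042228) lies on the plus strand at chr4:3678115-3813122 and Blk (ENSMUSG00000014453) on the minus strand at chr14:63372836-63417037. The Lyn promoter (chr4:3677236-3680288) had folds of 31.6 (26.9 to 36.8), 88.1 (80.3 to 96.3) and 128 (117 to 138) in WT, 28.4 (24.1 to 33.2) in Erg KO and 29.7 (25.3 to 34.5), 88.2 (79.7 to 97.3) and 121 (111 to 131) in Rescue. This was the highest fold of the whole set, and it rose at each stage by nearly the same amount in both genotypes. Of the 37 regions at Lyn, 6 were at least 2 times lower in WT proB than in WT pre-proB and 1, the promoter, was higher. Of all merged regions with a peak in either library 25.4% were lower and 17.5% higher. The 37 also count regions with a peak in neither, so the shares are not alike.

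An element of Lyn intron 4 (chr4:3743796-3744565, 66.1 kb from the start) had 3.68, 6.46 and 18.6 in WT, 8.91 and 20.8 in Rescue proB and preB, and no peak in Erg KO or Rescue pre-proB. The WT pre-proB peak was at percentile 7.58 of its list, and WT was 1.54 times the lowest fold called in Erg KO. A pair of other Lyn regions (chr4:3730001-3730273 and chr4:3797602-3797986) was called in WT pre-proB alone, at 3.1 and 3.88.

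The Blk promoter (chr14:63415383-63417952) had folds of 20.5, 46.7 and 63.8 in WT, 18.1 in Erg KO and 17.9, 28.1 and 46.2 in Rescue. Among the 8 promoters it had the lowest ratio of Rescue to WT at proB and at preB. The ratio was 0.601 (0.481 to 0.747) at proB and 0.725 (0.606 to 0.865) at preB, lower than in all but 2.47% and 1.08% of coding promoters with a peak in both libraries. A region of intron 1 (chr14:63388724-63389603) had 14.3, 42.3 and 49.8 in WT, 15.4 in Erg KO and 16.8, 28.7 and 41.9 in Rescue, with a ratio of Rescue to WT of 0.68 (0.543 to 0.847) at proB.

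Another part of Blk intron 1, 3.36 kb from the start (chr14:63412898-63414450), was lower in proB and preB than in pre-proB, as the Syk element was. It had folds of 75, 16.8 and 12.7 in WT, 76.8 in Erg KO and 87.2, 25.6 and 17.9 in Rescue. Intron 10 (chr14:63376817-63378666) held the strongest Blk region, which stayed between 91.6 and 118 in all 7 libraries.

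Blnk (ENSMUSG00000061132, chr19:40928927-40994535, minus strand), the adaptor, had a steady promoter. Its strongest promoter peak had folds of 48.1, 43.2 and 46.7 in WT, 49.7 in Erg KO and 45.9, 39.6 and 47.5 in Rescue, all with overlapping intervals. In 6 libraries that peak lay over exon 1 (chr19:40993253-40994877), and in WT proB a peak just upstream (chr19:40995153-40996736) was slightly higher, 43.2 against 43.0. That upstream region was between 30.4 and 45.2, and another promoter region (chr19:40992109-40993181) was weak, between 3.3 and 4.82. The strongest region of the gene, in intron 4 (chr19:40962874-40964118), was at 60.5, 44.1 and 49.3 in WT, 71.5 in Erg KO and 73.6, 46.1 and 45.0 in Rescue. Other elements inside the gene were higher in proB and preB all the same. Intron 2 (chr19:40969991-40971188, 23.9 kb from the start) had folds of 32.1 and 27.0 in WT proB and preB and of 18.0 and 27.2 in Rescue proB and preB, and intron 1 (chr19:40977976-40978630) had 11.3 and 11.6 and then 8.24 and 12.2. Neither had a peak in any pre-proB library, WT included.

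Btk (ENSMUSG00000031264, chrX:134542336-134583570, minus strand) encodes the TEC-family kinase that activates phospholipase C gamma 2. The promoter of Btk (chrX:134582187-134583782) was flat, at 13.8, 14.6 and 16.0 in WT, 13.6 in Erg KO and 13.4, 14.7 and 17.3 in Rescue, with overlapping intervals throughout. Stage differences lay in the introns. Intron 5 (chrX:134564184-134564830, 19.1 kb from the start) had 4.07 (2.56 to 6.18), 33.4 (28.7 to 38.6) and 23.9 (19.6 to 28.8) in WT, no peak in Erg KO or Rescue pre-proB, and 19.6 and 24.3 in Rescue proB and preB. Intron 4 (chrX:134566292-134567502) had 8.14, 36.4 and 36.6 in WT, 7.7 in Erg KO and 7.68, 32.3 and 39.2 in Rescue. The intron 4 element was called in every library and the intron 5 element was not, but WT pre-proB at intron 5 was only 1.71 times the lowest fold called in Erg KO. The strongest region of the window (chrX:134585115-134586456), upstream of Btk at the promoter of its neighbour Rpl36a, was between 55.9 and 88.6.

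Plcg2 (ENSMUSG00000034330, chr8:117498291-117635142, plus strand), the last enzyme of the chain, combined both movements. Its promoter (chr8:117497711-117499666) had folds of 34.7, 61.5 and 94.2 in WT, 38.7 in Erg KO and 37.5, 62.1 and 80.5 in Rescue. A pair of strong elements in intron 2, at chr8:117527243-117529883 and chr8:117532018-117533229, was lower in proB and preB than in pre-proB. The first had 97.3, 42.1 and 53.3 in WT, 97.1 in Erg KO and 104, 51.7 and 55.3 in Rescue, and the second 111, 44.9 and 62.5, then 115, then 122, 68.4 and 61.5. The intron 5 element (chr8:117562118-117563717, 64.6 kb from the start) had 3.68, 24.7 and 13.6 in WT, no peak in Erg KO or Rescue pre-proB, and 13.1 and 7.63 in Rescue proB and preB. WT pre-proB at this element was only 1.54 times the lowest fold called in Erg KO. The fold of the element was highest in WT proB, and Rescue was 0.531 times (0.384 to 0.727) WT at proB. A region in the far upstream flank (chr8:117488596-117488795) was called in WT pre-proB alone, at 4.26.

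**Figure D4:**
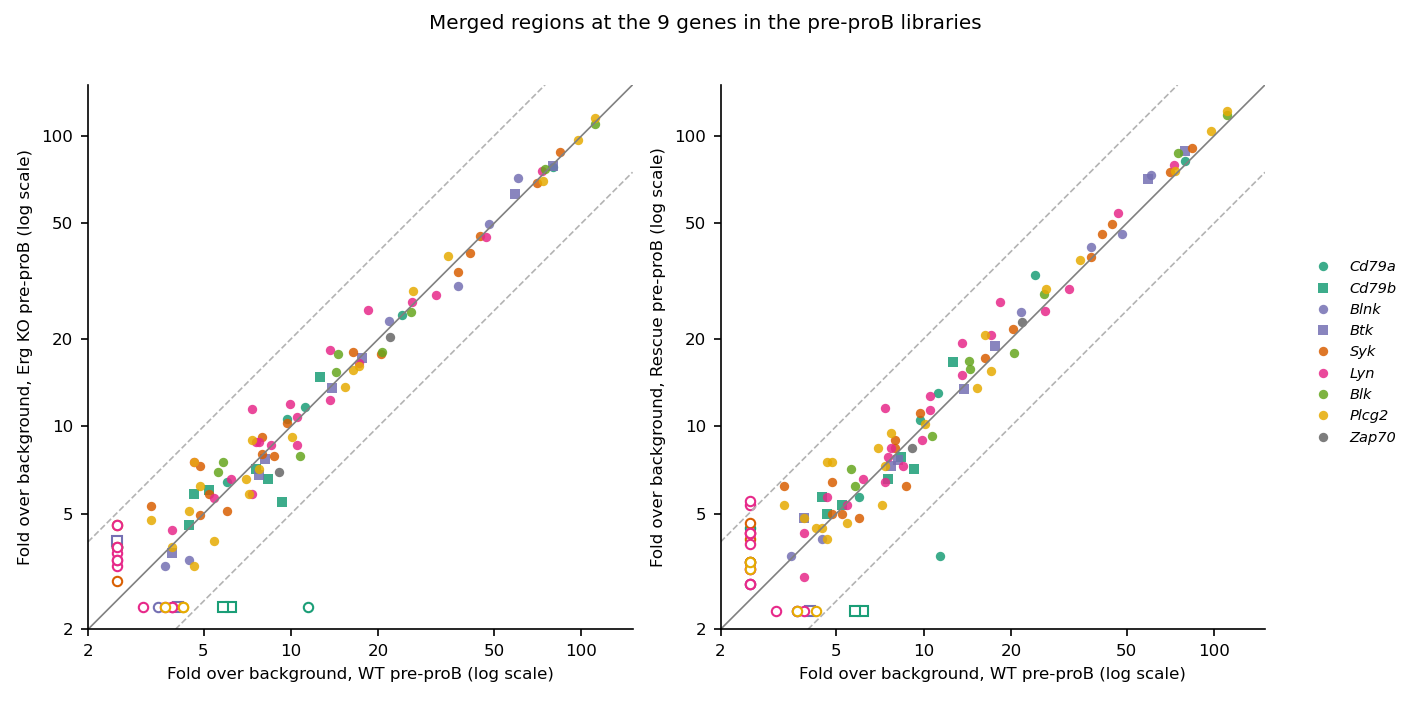
Fold over background in WT pre-proB (x axis, log scale) against Erg KO pre-proB (left) and Rescue pre-proB (right, y axes, log scale) for the merged regions at the 9 genes. The solid line marks equal folds, dashed lines a 2-fold difference, and open symbols a region without a peak in 1 of the pair, drawn at the lowest fold called. Outside the dashed lines on the lower side lie 1 Cd79a and 2 Cd79b regions in each panel.

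The first comparison set Erg KO against WT at the pre-proB stage. The 2 libraries differ in Cre and in the mouse as well as in Erg, and these cannot be told apart. Of 111 WT pre-proB peaks at the members, 13 had no Erg KO peak, 11.7% (6.97 to 19.0), where 6.88% of all WT pre-proB peaks had none. They were 1 at Cd79a, 2 at Cd79b, 4 at Lyn, 3 at Plcg2 and 1 each at Blnk, Btk and Blk, with a median fold of 4.07 where shared peaks had 9.69. In the other direction 13 of 113 Erg KO peaks had no WT peak, 11.5% (6.85 to 18.7) against 13.6% over the list, and the highest of them had a fold of 4.58.

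By height, 3 of 116 member regions were at least 2 times lower in Erg KO, 2.59% (0.883 to 7.33) against 1.43% of all merged regions. These were the Cd79a promoter and the near and far Cd79b elements. None was at least 2 times higher (upper limit 3.21%), where 1.25% of all regions were. Regions with a peak in both libraries had a median ratio of 1.01 at the members and 1.04 overall.

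In Rescue pre-proB the same 3 regions were at least 2 times lower than in WT, 3 of 123 or 2.44% (0.833 to 6.93) against 1.42%, and 2 weak Lyn regions were higher, 1.63% against 1.72%. The comparisons share the WT pre-proB library, so these counts are not independent. Between Rescue and Erg KO pre-proB, 0 of 118 regions differed 2-fold in either direction (upper limit 3.15%), with 0.793% of all regions higher and 0.361% lower.

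The regions called in all 3 WT libraries and in neither Erg-deficient pre-proB library numbered 5 of 163, 3.07% (1.32 to 6.98), while 1.33% of all merged regions were of this kind. They were the near and far Cd79b elements and the elements of Btk intron 5, Lyn intron 4 and Plcg2 intron 5, and all 5 had a peak in Rescue proB and preB. Without the Rescue library in the definition there were 7, and with the stage of the Rescue libraries taken from their source names there was 1. With the 3 regions called in WT pre-proB alone, 8 regions were in WT pre-proB and in neither Erg-deficient pre-proB library, 4.91% (2.51 to 9.38) against 2.36%. The reverse, a peak in Erg KO and Rescue pre-proB and in no WT library, was seen in 5 regions, 2 at Syk and 3 at Lyn, 3.07% against 3.92%, with folds of 2.86 to 5.54.

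**Figure D5:**
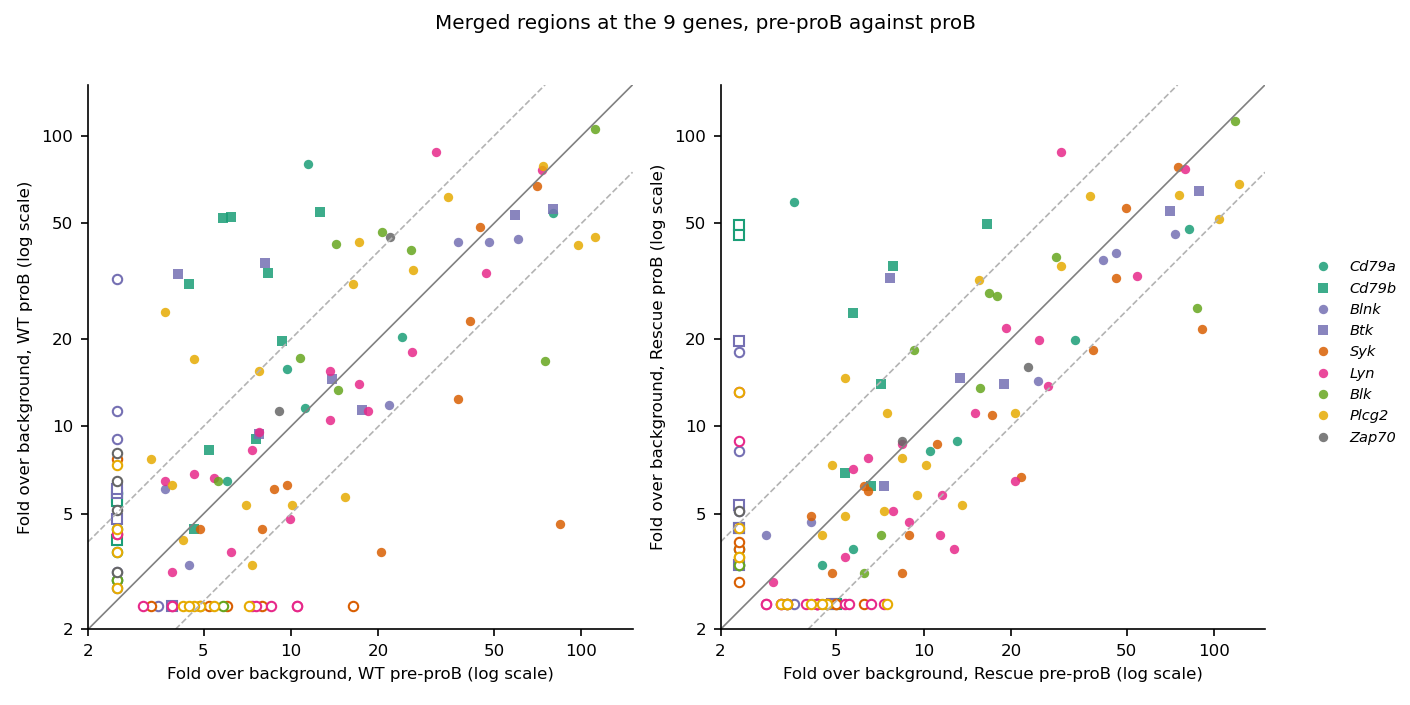
Fold over background in pre-proB (x axes, log scale) against proB (y axes, log scale) for the merged regions at the 9 genes, in WT (left) and Rescue (right). The solid line marks equal folds, dashed lines a 2-fold difference, and open symbols a region without a peak in 1 of the pair, drawn at the lowest fold called. The Cd79a promoter lies above the upper dashed line in both panels (11.4 against 80.1 in WT, 3.57 against 59.0 in Rescue), and the Syk intron 1 region lies far below the lower one in WT (84.1 against 4.62).

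The next comparison was between stages, first within WT. From WT pre-proB to proB, 24 of 111 peaks were lost, 21.6% (15.0 to 30.2) against 34.1% over the list, and 31 of 115 were gained, 27.0% (19.7 to 35.7) against 31.9%. By height, 30 of 132 regions were at least 2 times higher in WT proB, 22.7% (16.4 to 30.6) against 17.5%, and 23 were lower, 17.4% (11.9 to 24.8) against 25.4%. The higher regions were 8 at Cd79b, 5 at Plcg2, 4 each at Btk and Zap70, 3 at Blnk, 2 each at Cd79a and Blk and 1 each at Syk and Lyn. The lower ones were 8 at Syk, 7 at Plcg2, 6 at Lyn and 2 at Blk, with 0 among the regions of Cd79a, Cd79b, Blnk, Btk and Zap70.

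The same step was then read in Rescue. Of 138 regions, 19 were at least 2 times higher in Rescue proB than in Rescue pre-proB, 13.8% (8.99 to 20.5) against 12.1%, and 22 were lower, 15.9% (10.8 to 23.0) against 27.8%. The higher ones were 5 at Cd79b, 3 each at Blnk, Btk, Lyn and Plcg2 and 1 each at Cd79a and Zap70, with none at Syk or Blk. The lower ones were 8 each at Syk and Lyn, 3 at Plcg2, 2 at Blk and 1 at Cd79b. The split by gene was not compared with that of WT by any test. Regions with a peak in both of these libraries had a median ratio of 0.81 over the genome, and with folds divided by it the counts were 29 higher and 12 lower.

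Markers of other cell types were read beside the stage step. Among 10 NK-cell genes 6 had a promoter peak in each pre-proB library and 3 to 7 in the others, with a summed fold of 155 to 179 against 46.4 to 81.7. Ncr1, Gzmb and Klre1 had none anywhere. Klrb1c was at 39.5, 35.2 and 49.7 in WT, Erg KO and Rescue pre-proB, and Klrd1 at 77.9, 84.1 and 89.7. The list was not uniform. Tbx21 was called in WT proB, WT preB and Rescue proB and in no pre-proB library. Eomes was at 8.12 to 15.7 in the proB and preB libraries and at 4.07, 6.05 and 5.72 in the 3 pre-proB libraries. Among 10 plasmacytoid dendritic genes 9 or 10 had a peak in every library, with sums of 546 to 653 and 366 to 649. Klk1 was at 41.7, 41.4 and 47.5 in the same 3 pre-proB libraries, and Siglech at 101, 103 and 113. Others went the opposite way. Tcf4 was at 62.8 to 144 in the proB and preB libraries and at 59.2 to 62.4 in pre-proB. Spib was at 83.3 to 174 in the proB and preB libraries and at 48.1 to 55.9 in the 3 pre-proB libraries. Of 10 T-cell genes 6, 8 and 8 had a peak in these 3, and 2 to 5 elsewhere, with sums of 152 to 171 against 102 to 141 and with Cd3d and Cd3e never called. Of 10 myeloid genes 3 or 4 had a peak in every library, with sums of 40.5 to 49.8 against 24.3 to 43.0, and Elane, S100a8, S100a9, Ly6g and Ctsg were never called. The study's sort took cells without surface NK1.1, the product of Klrb1c, and without CD11c. The part of NK, plasmacytoid dendritic, T and myeloid cells in the Syk, Lyn, Blk and Plcg2 regions that were high in pre-proB was not tested.

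The 31 gained peaks were looked up in the other libraries. WT preB had 17 of them, 54.8% (37.8 to 70.8) against 48.5% of all gained peaks. Erg KO pre-proB had 4, 12.9% (5.13 to 28.9) against 11.9%, and Rescue pre-proB 2, 6.45% (1.79 to 20.7) against 13.8%. Rescue proB had 15, 48.4% (32.0 to 65.2) against 49.2%, and Rescue preB 17, 54.8% against 50.8%. The shares over the members were near those over the list. With the stages of Rescue taken from the source names, the share was 54.8% in Rescue pre-proB and 6.45% in Rescue proB, so the order of these libraries turns with the label used.

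Of the 24 lost peaks Erg KO pre-proB had 20, 83.3% (64.1 to 93.3) against 92.3%, and Rescue pre-proB 21, 87.5% (69.0 to 95.7) against 93.9%. Rescue proB still had 9, 37.5% (21.2 to 57.3) against 33.7%, of which 4 were at Lyn and 3 at Syk. Across the 3 pre-proB libraries 17 regions were called in all of them and in neither WT proB nor WT preB, 10.4% (6.61 to 16.1) against 17.7%, at Lyn (6), Plcg2 (5), Syk (4), Btk (1) and Blk (1). The 7 regions called in all 4 proB and preB libraries and no pre-proB library, 4.29% (2.1 to 8.6) against 5.19%, were 2 at Blnk and 1 each at Cd79a, Cd79b, Btk, Plcg2 and Zap70.

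From WT proB to WT preB the genes changed less. Of 115 proB peaks 20 had no preB peak, 17.4% (11.5 to 25.3) against 26.7%, and 11 of 110 preB peaks had no proB peak, 10% (5.68 to 17.0) against 10.7%. By height 7 of 118 regions were at least 2 times higher in preB, 5.93% against 6.44%, at Syk (3), Lyn (3) and Blnk (1), and 11 were lower, 9.32% against 12.8%. The promoters of Syk, Plcg2, Cd79b, Lyn and Blk had ratios of 1.91 (1.52 to 2.41), 1.53 (1.33 to 1.77), 1.45 (1.19 to 1.78), 1.45 (1.28 to 1.64) and 1.37 (1.15 to 1.62), and those of Cd79a, Blnk and Btk had 1.01, 1.08 and 1.1, with intervals that held 1.

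WT and Rescue were then set side by side at each stage. At pre-proB 10 of 111 WT peaks had no Rescue peak, 9.01% (4.97 to 15.8) against 5.88%, and 20 of 122 Rescue peaks had no WT peak, 16.4% (10.9 to 24.0) against 15.6%. At proB these were 18 of 115, 15.7% (10.1 to 23.4) against 20.6%, and 20 of 122, 16.4% against 19.8%. At preB they were 8 of 110, 7.27% (3.73 to 13.7) against 8.02%, and 12 of 113, 10.6% (6.18 to 17.6) against 17.9%.

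By height, 7 of 126 regions were at least 2 times higher in Rescue proB than in WT proB, 5.56% (2.72 to 11) against 9.84%, and 10 were lower, 7.94% (4.37 to 14.0) against 10.1%. The higher ones were 3 at Syk, 3 at Lyn and 1 at Plcg2, and Zap70 had the most lower ones, 3. One Lyn intron 1 region (chr4:3721113-3721932) had a fold of 13.1 in Rescue proB and otherwise only 3.3 in Erg KO. At preB 2 of 110 regions were higher, 1.82% against 5.18%, and 1 was lower, 0.909% against 2.03%.

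The neighbouring pathway genes were counted from a list of 34. These were 22 genes of receptor assembly and signalling (Ighm, Igll1, Vpreb1, Vpreb2, Vav1, Vav2, Vav3, Pik3ap1, Pik3cd, Pik3r1, Grb2, Gab1, Lat2, Lcp2, Plcg1, Tec, Fyn, Lck, Prkcb, Bcl10, Rasgrp3, Bank1) and 12 inhibitors (Cd22, Cd72, Fcgr2b, Pirb, Ptpn6, Inpp5d, Csk, Ptprc, Dok3, Cbl, Cblb, Lax1). All 12 inhibitors had a promoter peak in all 7 libraries. Of the 22, Erg KO and Rescue pre-proB had 20 each, and the other 5 libraries had 22 each.

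The 2 pathway genes with a promoter peak in some libraries only were the surrogate light chain genes Vpreb1 and Vpreb2. Vpreb1 had folds of 8.53, 55.6 and 21 in WT and 25.2 and 16.9 in Rescue proB and preB, and Vpreb2 had 4.26, 36.6 and 7.01 and then 9.35 and 5.16. Neither was called in Erg KO or Rescue pre-proB.

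The genes whose promoter profile was most like that of Cd79a, by the mean absolute difference in log2 fold over the 7 libraries among 15101 coding genes, were Sorbs2 (0.23), Slc17a4 (0.33), Cfi (0.40), Bsnd (0.40) and Ms4a1 (0.42). The first 4 had a promoter peak in the same 5 libraries, without Erg KO or Rescue pre-proB, and Ms4a1, the gene of the B-cell surface protein CD20, in the same 6 as Cd79a. Zap70 was set to the lowest called fold in all 7 libraries, so genes with a barely called promoter peak in 1 library had to come nearest. Those listed were Wasf3, Npas1, Prr23a3, Plce1 and Krtap6-3 (0.02 each), which says nothing of likeness to Zap70. These values rest on 7 points that share libraries and carry no test.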

How the data were processed

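ATAC-seq, which reads open chromatin, was done on 7 mouse libraries. The labels describe Tn5 tagmentation, whereas the methods describe sonication. Per the submitters' processing notes, CASAVA 1.8.2, Bowtie2, Picard, MACS2 and mm10 were used, with remaining versions and options not given in the sources used here. Peaks were called by the authors per library without pooling. The deposited lists give for each peak a score, which follows its −log10 q, the fold (ratio) of its summit over the background of the library, the −log10 p-value and q-value, and the summit offset.

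Summit pileups were recovered from the steps of the deposited fold (whole within 0.02), and gave 95% Poisson intervals for folds and exact binomial intervals for ratios (counts plus 1). Shares have Wilson intervals. Ratios compare folds, each relative to its own library's background. Peaks were joined to gene bodies ± 10000 bp (GENCODE M21), promoters were 1000 bp on either side of an annotated start, peaks were shared at 1 bp of overlap, and overlapping peaks of the 7 lists formed merged regions. Motifs were searched within 100 bp of the strongest summit. Python 3.11.15, pandas 2.3.3, numpy 2.4.6 and scipy 1.17.1 were used, and scripts were tested on simulated data.

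Members and lists were chosen with earlier results of these data known, and the 2-fold difference, the classes of presence and the octamer after the values were seen. All 9 genes were named, with their promoter regions, the strongest region of each and the regions that separate WT pre-proB from both Erg-deficient pre-proB libraries. Other regions were named after their values were seen. The intervals take pileup as independent counts and hold no spread between mice. Some genes of the marker and pathway lists are not reported here, and the counts given leave them out.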

Additional observations from a re-analysis of the deposited data

How the results depend on the processing

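With no replicate, the alternatives were other cut-offs and readings of the same 7 libraries and, for the counts and shares that answer a comparison, 89 alternative values stayed close to the main ones and 46 moved. No paired analysis was possible because each group had 1 library.

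With lists cut to the 76465 strongest peaks, Erg KO peaks without a WT peak fell to 2.33%, Rescue pre-proB peaks without a WT peak to 5.68%, WT proB peaks lost by preB to 10.3%, gained peaks present in Erg KO to 0.0%, and the regions in 3 WT libraries and neither Erg-deficient pre-proB library to 3. With the strongest 38232, there were 41 to 57 member peaks a library and 0 of those regions, and Cd79b kept a promoter peak in 4 libraries. Of the WT pre-proB peaks, 2.38% had no Erg KO peak and 2.38% no Rescue peak, the reverse was 0.0% for each, 9.52% were lost by WT proB, 7.14% of Rescue proB peaks had no WT peak, and gained peaks were present at 0.0% in Erg KO, 0.0% in Rescue pre-proB and 72.2% in each of Rescue proB and preB.

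With flanks of 50000 bp there were 184 to 204 member peaks. With at least 50% overlap of both peaks, WT pre-proB to proB losses and gains were 45.0% and 47.0%, proB to preB 27.8% and 24.5%, WT proB and preB peaks without a Rescue peak 27.0% and 14.5%, and Rescue proB peaks without a WT peak 31.1%. A promoter window of 2500 bp gave Zap70 a peak in 1 library.

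With stages from the source names, WT peaks without a Rescue peak were 21.6% at pre-proB and 31.3% at proB, Rescue peaks without a WT peak 32.0% at proB and 18.9% at preB, gained peaks were present at 54.8% in Rescue pre-proB and 6.45% in Rescue proB, and 1 region was in 3 WT libraries and neither Erg-deficient pre-proB library.

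The alternatives for 2-fold differences were chosen after seeing the data, as were those for the regions in 3 WT libraries. With a peak required in both libraries, regions lower in Erg KO numbered 0, higher and lower in Rescue pre-proB than WT 0 and 1, higher and lower in WT proB than pre-proB 17 and 9, in Rescue proB than pre-proB 8 and 13, and in Rescue proB than WT proB 1 and 4. With folds divided by the median ratio, 0 were higher in Rescue pre-proB than WT, and 29 higher and 12 lower in Rescue proB than pre-proB.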
